A study of Mus musculus with 34 samples.

Results

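The genes described here are 5 parts of the machinery by which myeloid cells read antibody: the Fc receptor genes Fcgr1, Fcgr2b and Fcgr3, the shared signalling chain Fcer1g, and the kinase Syk. They were picked by symbol, and all 5 were found among the 16389 genes of the table. They were followed in bulk RNA of 3 brain regions from untreated mice, and from transplanted mice in whose brains marrow-derived cells made up some or most of the myeloid cells.

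Fc gamma receptors bind the constant part of IgG. Fcgr1 is the high-affinity receptor and Fcgr3 a low-affinity one, and both need Fcer1g, a short chain that carries an immunoreceptor tyrosine-based activation motif (ITAM). Once Src family kinases have phosphorylated the ITAM tyrosines, Syk binds them and starts phagocytosis and cytokine release. Fcgr2b is the inhibitory receptor: its tail carries an inhibitory motif (ITIM) that recruits the phosphatase SHIP1, the product of Inpp5d, and lowers the signal of the activating receptors. The balance of Fcgr2b and the activating receptors sets how strongly a myeloid cell answers IgG. In the brain these genes are expressed mainly by microglia and macrophages, while Fcgr2b is also a gene of B cells and Syk of many blood cells.

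All mice were male C57BL/6. WT CON mice received no irradiation, transplant or inhibitor, and their age was not given separately. GFP-BM CON mice were irradiated over the whole body, head included, with 1000 cGy at 4 months of age and received bone marrow of CAG-EGFP donors, in which a ubiquitous promoter drives EGFP. GFP-BM REPOP mice received the same irradiation and marrow and, 3.5 months later, chow with PLX3397 at 600 ppm for 14 days, an inhibitor of the receptor CSF1R on which microglia depend, followed by 6 months of recovery. According to the study, marrow-derived cells were a minority of the parenchymal myeloid cells in GFP-BM CON brains. They were most of these cells in GFP-BM REPOP brains, where pockets of microglia remained. Both transplanted groups were collected 10 months after irradiation, so that irradiation is common to them and absent from WT CON mice. Each treatment had 4 animals, and the 34 libraries each held 1 region of 1 animal: 3, 4 and 4 libraries of the cortex (untreated, transplanted, transplanted with inhibitor), 4, 4 and 4 of the hippocampus, and 4, 3 and 4 of thalamus tissue, in which the striatum was included. The thalamus of 1 GFP-BM CON animal was not analysed here, and 1 WT CON animal had no cortex library.

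The values are FPKM, fragments scaled to gene length and library size, which can be compared between genes, and they came from 17085018 to 26010509 reads per library. Differences are given as log2 of FPKM + 0.1, first group minus second group, and understate the change of low genes. They were tested over 14710 genes with limma-trend, and a gene is called changed at a Benjamini-Hochberg adjusted p under 0.05. Some libraries stood apart. GFP-BM REPOP replicate 4 of the hippocampus had 1373 FPKM of summed striatum markers, where the other 3 libraries of its group had 62.2 to 150, and 51.4 FPKM of hippocampus markers, so that it went against its label. Replicate 1 of that group had 253 FPKM of cortex markers, where the others had 122 to 140. All libraries of that group lay above the WT CON (94.5 to 107) and GFP-BM CON hippocampus libraries (76.9 to 93.5). Summed striatum markers ran from 56.8 to 443 FPKM in WT CON and from 94.2 to 140 in GFP-BM CON hippocampus libraries. Tissue content thus differed between whole hippocampus groups, and its part in the members' values was not tested. The border macrophage markers, such as Mrc1 and Pf4, summed to 29.4 FPKM in WT CON hippocampus replicate 2, 33.1 in GFP-BM REPOP hippocampus replicate 1 and 18.8 in GFP-BM REPOP cortex replicate 1. The other libraries had 1.92 to 9.47. The sum of the choroid plexus markers ran from 31.9 to 6487 FPKM over the hippocampus libraries. A measure of GC content, the log2 level of GC-rich genes minus that of AT-rich genes, was 1.09 to 3.65 in WT CON thalamus libraries and 0.453 to 0.938 in the transplanted ones, without overlap. In the cortex it was 0.753 to 1.24 in WT CON and 0.429 to 0.583 in GFP-BM CON libraries, also without overlap, and 0.411 to 0.994 in GFP-BM REPOP ones. All 10 pan-myeloid markers, such as Aif1 and Csf1r, were detected in each group, with sums of 78.6 to 180 FPKM. In such bulk tissue fewer cells of a type and less RNA per cell cannot be told apart.

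Fcer1g (Entrez 14127) lies at chr1:171229572-171234349 of GRCm38, on the same chromosome as the receptor genes Fcgr3 (14131, chr1:171051169-171065915) and Fcgr2b (14130, chr1:170960558-170976071). Fcgr1 (14129) lies at chr3:96282909-96293969 and Syk (20963) at chr13:52582610-52648792. The stretches of coding sequence that hold the signalling motifs are printed from the GENCODE M21 transcripts, 5′ to 3′, with the tyrosine codons and the hydrophobic codons that go with them in capitals. The first line is the ITAM of Fcer1g, the second that of Tyrobp (22177, DAP12), the other ITAM adaptor of microglia, shown for comparison, and the third the ITIM of Fcgr2b.
Fcer1g: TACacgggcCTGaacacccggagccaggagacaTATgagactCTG
Tyrobp: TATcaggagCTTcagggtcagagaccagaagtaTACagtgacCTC
Fcgr2b: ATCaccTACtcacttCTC
The Fcer1g stretch is read from the minus strand across 2 exons (chr1:171229889-171230072), with its tyrosines at codons 65 and 76. The Tyrobp stretch lies on the plus strand across 2 exons (chr7:30415670-30417382), with tyrosines at codons 92 and 103, and both adaptors have 7 codons between its first and second part. The Fcgr2b stretch lies within 1 exon on the minus strand (chr1:170961071-170961088), with its tyrosine at codon 319. The ITAM was searched as a tyrosine codon followed 3 codons later by a leucine or isoleucine codon, and the same again after 6 to 8 codons. This pattern is in the coding sequence of 618 of 21653 genes (2.85%). It was found 1 time in Fcer1g and 0 times in Fcgr1, Fcgr2b, Fcgr3 and Syk. The shorter ITIM pattern (a serine, isoleucine, valine or leucine codon, any codon, a tyrosine codon, 2 of any kind, and an isoleucine, valine or leucine codon) was less specific. It matched 3 times in Fcgr1 and 1 time each in Fcgr2b, Fcer1g and Tyrobp, so a match alone does not mark an inhibitory receptor.

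Fcgr2b and Fcgr3 are close relatives, and this bears on how reads are shared between them. Their coding sequences are identical at 658 of 784 aligned bases (83.9%), whereas Fcgr1 is identical to Fcgr2b at 59.7% and to Fcgr3 at 61.4%. The longest run that both transcripts hold unchanged is 129 bases. It is printed because bases inside it fit either gene, although a whole read of 150 bases is longer than the run.
shared run: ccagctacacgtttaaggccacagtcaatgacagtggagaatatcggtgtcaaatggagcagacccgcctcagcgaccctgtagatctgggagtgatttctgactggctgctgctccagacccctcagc
It spans 2 exons on the minus strand in each gene, at chr1:170966674-170968081 in Fcgr2b and chr1:171054167-171057792 in Fcgr3. Of all windows of 100 bases, 44 were shared, which is 1.28% of those of Fcgr2b and 3.53% of those of Fcgr3. At 150 bases, the length of 1 read, 0 windows were shared. Neither gene shared a window of 50 bases with Fcgr1, Fcer1g or Syk.

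Over the 34 libraries the chain was the most abundant of the 5 genes and the kinase the least. Fcer1g ran from 7.66 to 17.8 FPKM with a median of 11.4, and Fcgr3 from 3.99 to 11.9 with a median of 5.71. Fcgr2b had a median of 2.11 FPKM (range 1.21 to 4.55), Fcgr1 of 1.29 (0.761 to 2.13) and Syk of 0.879 (0.557 to 1.60). The median number of reads behind these values was 146 for Fcer1g, 178 for Fcgr3, 70 for Fcgr2b, 72.5 for Fcgr1 and 102.5 for Syk, so that counting alone gives an SD of 7.5% to 12% of the value. Tyrobp lay above them at 13.2 to 35.4 FPKM.

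**Figure D1:**
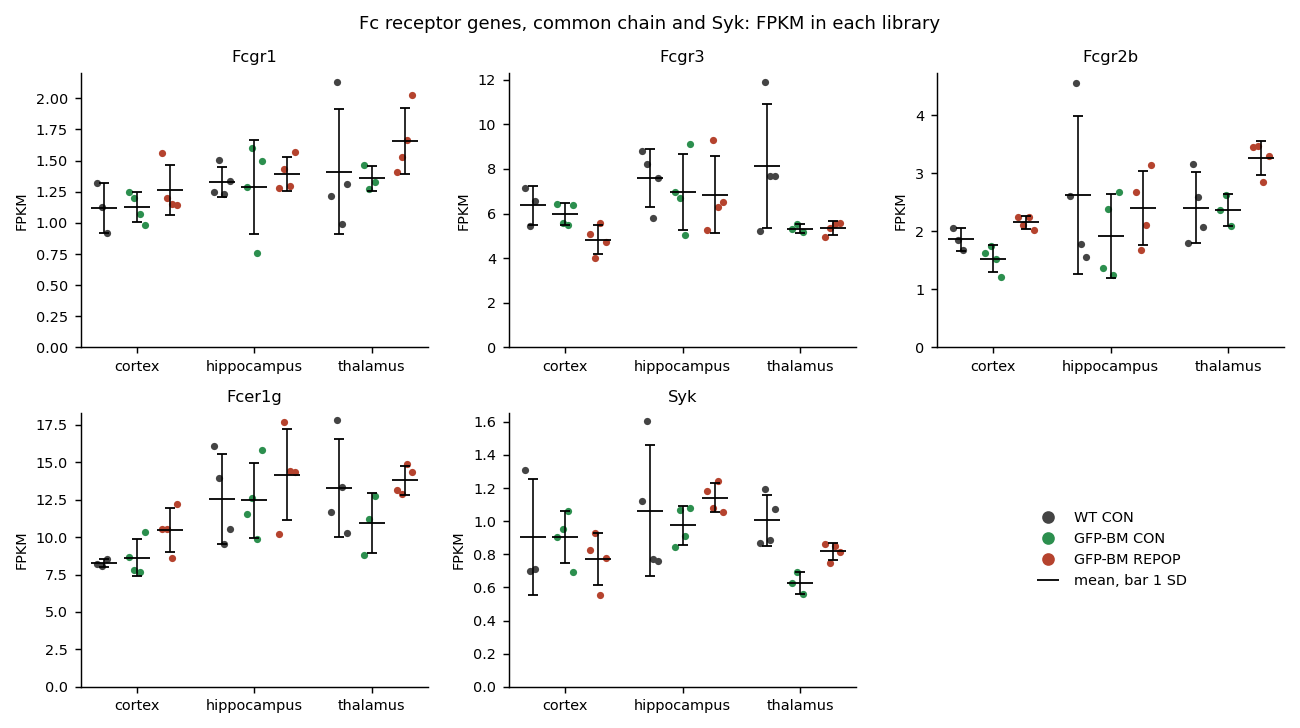
FPKM of the 5 genes (1 panel each, y axis) in each of the 34 libraries, by region and treatment (x axis), with the mean and 1 SD of each group as bars. By group mean, Fcer1g was lowest in the cortex and Fcgr2b highest in GFP-BM REPOP thalamus (libraries of 2.85 to 3.47 FPKM), and the groups of most panels overlap. The highest single Fcgr2b value, 4.55 FPKM, was in a WT CON hippocampus library.

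None of the 5 genes passed the adjusted threshold in any of the 9 comparisons between treatments. GFP-BM REPOP against WT CON called 0 of 5 in each region, and in cortex, hippocampus and thalamus 0.734%, 0.0136% and 0.836% of all genes were called. At an unadjusted p under 0.05 the counts were 2, 0 and 2 members, beside 14.3%, 9.67% and 25% of all genes. GFP-BM CON against WT CON called 0 of 5 members in each region (0.32%, 0% and 0% of all genes), with 0, 0 and 2 members at an unadjusted p under 0.05 (16%, 23.9% and 20.7%). Within the transplanted mice, the inhibitor comparison likewise called 0 of 5 (0.0476%, 0.0272% and 0%), with 3, 0 and 1 members at an unadjusted p under 0.05 (4.27%, 11.7% and 0.945%). Voom on the recovered reads called 0 members as well in these comparisons.

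**Figure D2:**
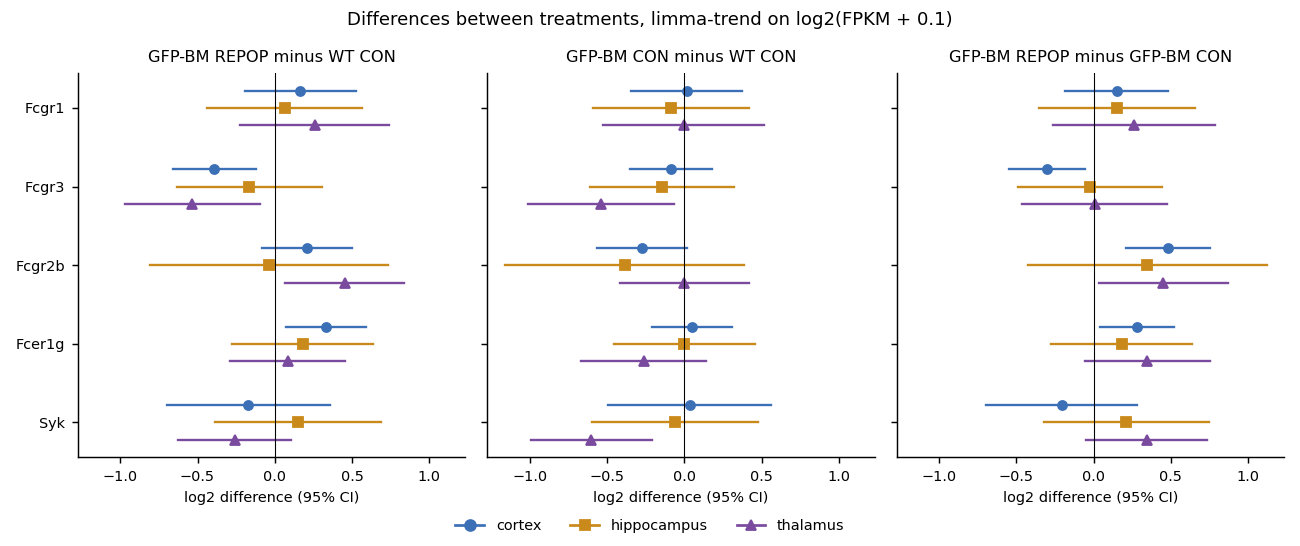
Log2 difference in FPKM + 0.1 (x axis) of each gene (y axis) in the 3 comparisons (panels) and 3 regions (colours and markers), with 95% confidence intervals from limma-trend. In GFP-BM REPOP against WT CON, Fcgr3 lies below 0 and Fcer1g and Fcgr1 lie above 0 in every region, and no interval passed the adjusted threshold.

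Fcgr3, the activating low-affinity receptor, was lower by estimate in the cortex after repopulation. The WT CON cortex libraries had 7.13, 5.43 and 6.55 FPKM, the GFP-BM CON libraries 6.42, 5.597, 5.47 and 6.38, and the GFP-BM REPOP libraries 5.06, 3.99, 5.56 and 4.74. Only 1 of the 4 GFP-BM REPOP libraries reached into the WT CON range. The log2 difference from WT CON was -0.39 (95% interval -0.66 to -0.12, adjusted p = 0.208), and that from GFP-BM CON was -0.30 (-0.55 to -0.06, adjusted p = 1). GFP-BM CON and WT CON cortex differed by -0.09 (adjusted p = 0.804).

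In the thalamus Fcgr3 stood lower in both transplanted groups. Its 4 WT CON libraries had 5.24, 11.9, 7.68 and 7.68 FPKM, against 5.30, 5.52 and 5.16 in GFP-BM CON and 4.93, 5.35, 5.54 and 5.59 in GFP-BM REPOP libraries. The WT CON values were far more spread than the others, and the lowest WT CON library lay inside both of them. The difference was -0.53 for GFP-BM REPOP (95% interval -0.97 to -0.10, adjusted p = 0.158) and -0.54 for GFP-BM CON (adjusted p = 0.212). Single WT CON libraries decided these values. Without replicate 1, the lowest, Fcgr3 was called lower in GFP-BM REPOP (-0.72, adjusted p = 0.0196) and in GFP-BM CON (-0.73, adjusted p = 0.0287). Without replicate 2, the highest and the library with the highest GC measure (3.65), the differences were -0.33 (adjusted p = 0.158) and -0.34 (adjusted p = 0.193). GFP-BM REPOP and GFP-BM CON thalamus had nearly the same mean, 5.35 ± 0.298 (SD, n = 4) and 5.33 ± 0.183 FPKM (SD, n = 3), and the interval of their log2 difference ran from -0.47 to 0.48.

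Fcgr2b, the inhibitory receptor, moved the other way by estimate in GFP-BM REPOP cortex and thalamus. In the cortex the 4 GFP-BM REPOP libraries had 2.25, 2.12, 2.25 and 2.02 FPKM and the 4 GFP-BM CON libraries 1.63, 1.74, 1.53 and 1.21, without overlap. The WT CON cortex libraries lay between them at 2.06, 1.85 and 1.67. The difference of GFP-BM REPOP from GFP-BM CON was 0.48 (95% interval 0.21 to 0.75, adjusted p = 0.477), and that from WT CON was 0.21 (adjusted p = 0.516).

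In the thalamus Fcgr2b had 3.45, 3.47, 2.85 and 3.30 FPKM in GFP-BM REPOP libraries, 2.37, 2.63 and 2.09 in GFP-BM CON libraries and 1.79, 3.17, 2.60 and 2.08 in WT CON libraries. GFP-BM REPOP libraries all lay above GFP-BM CON ones, and 1 WT CON library reached their range. Against WT CON the difference was 0.45 (95% interval 0.06 to 0.84, adjusted p = 0.169), which was called only where libraries were weighted by quality (0.58, adjusted p = 0.0468) among the alternatives tried. Against GFP-BM CON it was 0.45 (0.03 to 0.87, adjusted p = 1). Over all genes, alternatives other than leaving out a library called 11 to 1954 in GFP-BM REPOP against WT CON thalamus. A correction for GC content and length brought the Fcgr2b difference from WT CON down to 0.20 and kept that from GFP-BM CON at 0.45. In the hippocampus the difference from WT CON was -0.04, with an interval from -0.81 to 0.73 that covers changes of either direction. It was -0.18 without the library with striatum markers and 0.26 without WT CON replicate 2, the library with the highest Fcgr2b value (4.55 FPKM) and with border macrophage markers.

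**Figure D3:**
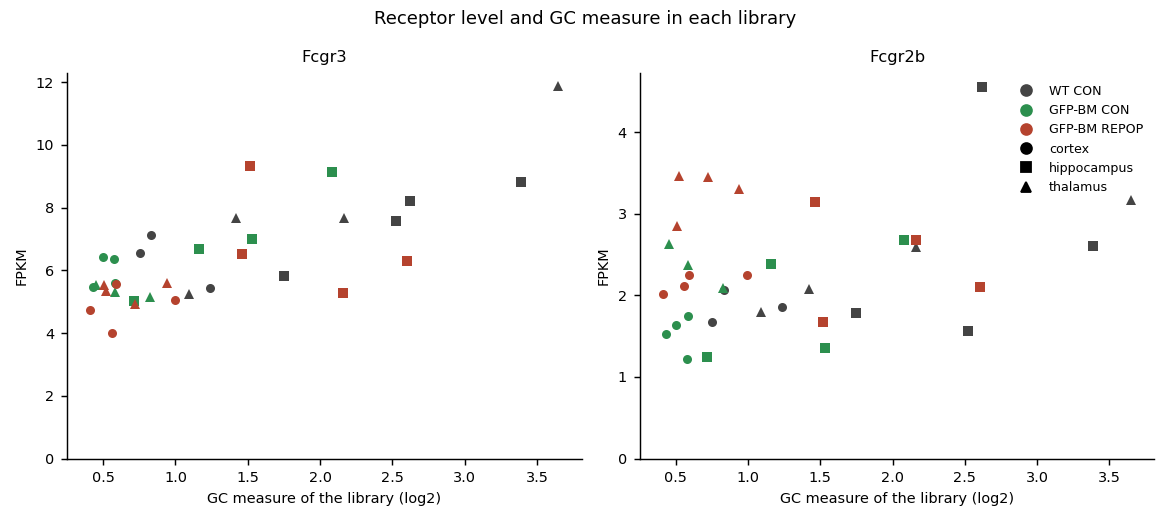
FPKM of Fcgr3 and Fcgr2b (y axis) against the GC measure of each of the 34 libraries (x axis, log2 level of GC-rich minus AT-rich genes), with treatment and region as colour and marker. The WT CON thalamus library at a GC measure of 3.65 has the highest Fcgr3 value (11.9 FPKM), and all WT CON thalamus libraries lie to the right of the transplanted thalamus libraries.

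Fcgr2b and Fcgr3, an inhibitory and an activating receptor, were also set against each other within each library. This ratio leaves out Fcgr1, so it does not give the balance with all activating receptors. The ratio of Fcgr2b to Fcgr3 (FPKM + 0.1 of each) was 0.299, 0.354 and 0.266 in WT CON cortex libraries. It was 0.266, 0.323, 0.292 and 0.203 in GFP-BM CON and 0.455, 0.542, 0.416 and 0.439 in GFP-BM REPOP cortex libraries. All 4 GFP-BM REPOP libraries lay above all 7 others. The log2 difference was 0.60 from WT CON and 0.79 from GFP-BM CON, each with p = 0.0286 and adjusted p = 0.257 by the two-sided exact permutation test.

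In the thalamus the ratio was 0.354, 0.272, 0.346 and 0.280 in WT CON, 0.458, 0.486 and 0.417 in GFP-BM CON, and 0.706, 0.654, 0.523 and 0.597 in GFP-BM REPOP libraries. The 3 groups did not overlap and stood in the order WT CON, GFP-BM CON, GFP-BM REPOP, with means of 0.313 ± 0.043 (SD, n = 4), 0.454 ± 0.0346 (SD, n = 3) and 0.620 ± 0.0785 (SD, n = 4). The log2 differences were 0.99 for GFP-BM REPOP from WT CON (p = 0.0286), 0.54 for GFP-BM CON from WT CON (p = 0.0286) and 0.44 for GFP-BM REPOP from GFP-BM CON (p = 0.0571), each by the exact permutation test. With 8 ratios in 9 comparisons, 72 tests in all, the smallest adjusted p was 0.257, so none passed. The exact test cannot go below p = 0.0286 with these group sizes. The adjusted threshold could therefore be passed only if most of the 72 tests stood at that lowest p, so not passing says little. After the GC and length correction the thalamus differences were 0.64, 0.20 and 0.44, and those in the cortex from WT CON and GFP-BM CON were 0.55 and 0.79.

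In the hippocampus the same ratio showed no such order. It ran from 0.216 to 0.559 in WT CON, from 0.206 to 0.366 in GFP-BM CON and from 0.189 to 0.518 in GFP-BM REPOP libraries, and all groups overlapped. The log2 difference of GFP-BM REPOP from WT CON was 0.13 (exact permutation test, p = 0.857). It took both signs between -0.08 and 0.43 when single libraries were left out, and was -0.02 without the library with striatum markers.

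**Figure D4:**
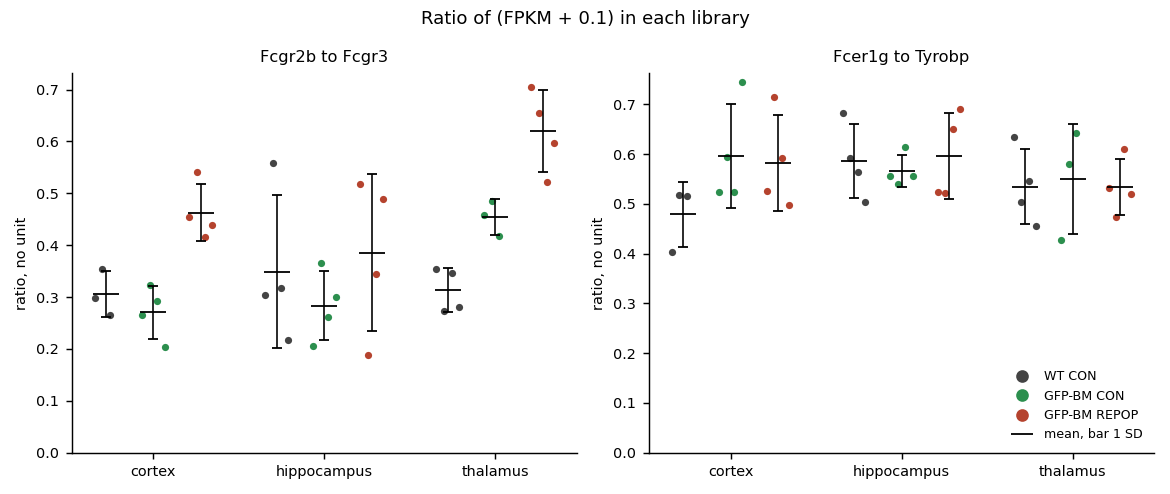
Ratio of Fcgr2b to Fcgr3 and of Fcer1g to Tyrobp (y axes, FPKM + 0.1 of each gene) in each library, by region and treatment (x axis), with the mean and 1 SD as bars. The Fcgr2b to Fcgr3 ratio of GFP-BM REPOP libraries lies above the other groups in the cortex (0.416 to 0.542) and thalamus (0.523 to 0.706), while the Fcer1g to Tyrobp ratios overlap in most comparisons.

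Fcgr1, the high-affinity receptor, had overlapping values in all treatments. Its group means in GFP-BM REPOP mice were 1.27 ± 0.200 FPKM (cortex), 1.39 ± 0.136 (hippocampus) and 1.66 ± 0.266 (thalamus, SD, n = 4 each). In WT CON mice they were 1.12 ± 0.198 (SD, n = 3), 1.33 ± 0.123 and 1.41 ± 0.499 (SD, n = 4 each). Every GFP-BM REPOP group overlapped its WT CON group, and the log2 differences were 0.16, 0.06 and 0.26 (adjusted p = 0.711, 0.931 and 0.410). In GFP-BM CON mice the means were 1.13 ± 0.118, 1.29 ± 0.374 (SD, n = 4 each) and 1.36 ± 0.099 FPKM (SD, n = 3), and the differences from WT CON lay between -0.09 and 0.01. Set against Fcgr3, Fcgr1 stood higher in GFP-BM REPOP thalamus (ratio 0.298 to 0.373) than in WT CON (0.140 to 0.246) and GFP-BM CON thalamus (0.244 to 0.290). These log2 ratio differences were 0.79 and 0.25 (exact permutation test, p = 0.0286 each, adjusted p = 0.257 each). In GFP-BM REPOP cortex the difference of this ratio from WT CON was 0.56 (exact permutation test, p = 0.0571, adjusted p = 0.274). The lowest GFP-BM REPOP library there (0.2217) barely cleared the highest WT CON one (0.2215). Fcgr1 thus stood higher against Fcgr3 as Fcgr2b did, and Fcgr2b was not set against Fcgr1.

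Fcer1g, the chain that Fcgr1 and Fcgr3 share, was higher by estimate in GFP-BM REPOP cortex. The WT CON cortex libraries had 8.18, 8.05 and 8.55 FPKM and the GFP-BM REPOP libraries 10.6, 10.6, 8.63 and 12.2, without overlap, although the lowest GFP-BM REPOP library was within 0.1 FPKM of the highest WT CON one. The difference was 0.33 (95% interval 0.07 to 0.59, adjusted p = 0.261). GFP-BM CON libraries had 8.68, 7.80, 7.66 and 10.3 FPKM and overlapped both groups. In the thalamus Fcer1g lay at 12.9 to 14.9 FPKM in GFP-BM REPOP and 8.81 to 12.8 in GFP-BM CON libraries, a difference of 0.35 (adjusted p = 1), while the WT CON libraries spread from 10.3 to 17.8. In the hippocampus it was 10.2 to 17.7 FPKM in GFP-BM REPOP and 9.57 to 16.1 in WT CON libraries.

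Fcer1g was also set against Tyrobp, the other adaptor. The ratio of Fcer1g to Tyrobp had thalamus means of 0.535 in WT CON libraries, 0.550 in GFP-BM CON libraries and 0.534 in GFP-BM REPOP libraries, and in the same order hippocampus means of 0.585, 0.567 and 0.597. In the cortex the means were 0.479, 0.596 and 0.583. The largest log2 difference of this ratio was 0.31, for GFP-BM CON from WT CON in the cortex (exact permutation test, p = 0.143, adjusted p = 0.429), and these were the only groups whose ratios did not overlap. Tyrobp itself differed from WT CON by 0.05, 0.16 and 0.08 in GFP-BM REPOP cortex, hippocampus and thalamus (adjusted p = 0.929, 0.791 and 0.732). From GFP-BM CON it differed by 0.31, 0.12 and 0.38 in the same order, without a call.

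Syk, the kinase that docks on the chain, was lowest in GFP-BM CON thalamus. Its values there were 0.625, 0.694 and 0.558 FPKM, against 0.870, 1.19, 0.889 and 1.07 in WT CON and 0.861, 0.749, 0.852 and 0.812 in GFP-BM REPOP thalamus libraries. The 3 groups did not overlap, with GFP-BM REPOP in the middle. GFP-BM CON differed from WT CON by -0.60 (95% interval -0.995 to -0.207, adjusted p = 0.129), GFP-BM REPOP from WT CON by -0.26 (adjusted p = 0.294), and GFP-BM REPOP from GFP-BM CON by 0.34 (adjusted p = 1). The first of these lay between -0.67 and -0.52 when single libraries were left out, and was -0.55 after the GC and length correction, -0.30 with a pseudocount of 1 and -0.98 after quantile normalization. In the cortex WT CON replicate 1 had 1.31 FPKM of Syk and the other 2 libraries had 0.700 and 0.709. The cortex difference of GFP-BM REPOP from WT CON was -0.17 with an interval from -0.70 to 0.36. In the hippocampus the GFP-BM REPOP libraries were close together (1.06 to 1.24 FPKM) and the WT CON libraries were not (0.758 to 1.60).

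Counted by overlap alone, GFP-BM REPOP and WT CON libraries were separate for 1 member in the cortex (Fcer1g, higher), 0 in the hippocampus and 1 in the thalamus (Syk, lower), beside 9.48%, 4% and 18.8% of all genes. GFP-BM CON and WT CON libraries were separate for 0, 0 and 1 members (Syk, lower), beside 16%, 13.7% and 23.1%. GFP-BM REPOP and GFP-BM CON libraries were separate for 1 member in the cortex (Fcgr2b, higher), 0 in the hippocampus and 3 in the thalamus (Fcer1g, Fcgr2b and Syk, higher), beside 3.09%, 6.88% and 4.56%. The thalamus comparison has 3 libraries on one side, and its 3 members are 3 of 5. Outside the members, Tyrobp was also separate and higher there (24.4 to 27.6 against 19.4 to 20.8 FPKM). So were the Fc receptor-like gene Fcrls (12.3 to 16 against 9.4 to 10.1) and the pan-myeloid sum (102 to 126 against 91.1 to 100). The sum of homeostatic microglia markers was separate and lower (82.9 to 87.5 against 91.8 to 94.4). The separation is thus not particular to the members. The comparisons of the 3 treatments share libraries, so they are not separate evidence.

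Between regions, Fcer1g was the only member called. It rose from cortex to hippocampus in WT CON mice (8.26 ± 0.257 FPKM, n = 3, against 12.5 ± 3.01, n = 4, log2 difference 0.57, adjusted p = 0.0253) and in GFP-BM CON mice (8.62 ± 1.23 against 12.5 ± 2.52, n = 4 each, 0.52, adjusted p = 0.0453). It also rose from cortex to thalamus in WT CON mice (13.3 ± 3.27, n = 4, 0.65, adjusted p = 0.0171). In GFP-BM REPOP mice the differences were 0.42 and 0.40 (adjusted p = 0.109 and 0.150). In the contrasts with these calls 36.9%, 19.8% and 30% of all genes were called, and 17.5% and 14.8% in the repopulated mice. At an unadjusted p under 0.05 the first of them held 47.5% of all genes. The call in WT CON hippocampus ended without any of the 3 cortex libraries or without hippocampus replicate 1 or 2 (adjusted p = 0.0581 to 0.108), and that in WT CON thalamus ended without replicate 2 (0.50, adjusted p = 0.0803). The call in GFP-BM CON mice ended under 17 of the settings that left out 1 library (adjusted p = 0.0508 to 0.197), among them all 3 WT CON cortex libraries and 6 libraries of its own groups, and under voom (0.50, adjusted p = 0.0715).

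Syk and Fcgr3 were higher by estimate in the hippocampus than in the cortex after repopulation, by 0.52 and 0.47 (adjusted p = 0.0803 and 0.0854). They were 0.56 and 0.48 without the library with striatum markers. Without hippocampus replicate 1, the library of that group with the most cortex markers, Fcgr3 and Fcer1g were called higher in the hippocampus (0.59 and 0.56, adjusted p = 0.0449 and 0.036). Fcgr3 was also called without WT CON thalamus replicate 2 (0.47, adjusted p = 0.0369). Syk was lower by estimate in the thalamus than in the hippocampus of GFP-BM CON mice (-0.57, adjusted p = 0.0952) and GFP-BM REPOP mice (-0.43, adjusted p = 0.109), where 14.3% and 34.3% of all genes were called. In WT CON mice that difference was -0.02. The remaining region contrasts called 0 members, in GFP-BM CON thalamus against cortex (12.9% of all genes) and in WT CON thalamus against hippocampus (17.7%). Tests of whether a treatment difference itself changed between regions called 0 of 5 members in 9 contrasts by limma-trend, also with 0 members at an unadjusted p under 0.05. For GFP-BM REPOP against WT CON, 0.034%, 0% and 0.034% of all genes were called and 5.79%, 5.25% and 9.99% had an unadjusted p under 0.05 (hippocampus minus cortex, thalamus minus cortex, thalamus minus hippocampus). For GFP-BM CON against WT CON, 0% was called in each and 10.1%, 3.45% and 2.63% had such a p. For the transplanted groups against each other, 0.177%, 0% and 0.0272% were called and 8.52%, 0.204% and 7.64% had such a p. The smallest adjusted p of a member was 0.608.

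Ranked by level over the 9 groups of region and treatment, every member's neighbouring groups overlapped. Fcer1g was highest in GFP-BM REPOP hippocampus (14.2 ± 3.06 FPKM, n = 4) and lowest in WT CON cortex. Fcgr1 and Fcgr2b were both highest in GFP-BM REPOP thalamus (1.66 ± 0.266 and 3.27 ± 0.289, n = 4) and lowest in WT CON cortex (1.12 ± 0.198, n = 3) and GFP-BM CON cortex (1.53 ± 0.227, n = 4). Fcgr3 was highest in WT CON thalamus (8.12 ± 2.76, n = 4) and lowest in GFP-BM REPOP cortex (4.84 ± 0.657, n = 4). Syk was highest in GFP-BM REPOP hippocampus (1.14 ± 0.0874, n = 4) and lowest in GFP-BM CON thalamus (0.626 ± 0.0678, n = 3). All 3 cortex groups were the lowest 3 for Fcer1g and for Fcgr1.

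Marker genes of the myeloid cells moved with treatment, and their part in the members' values was not tested. The pan-myeloid sum was 100 to 106 FPKM in WT CON, 78.6 to 85.4 in GFP-BM CON and 81.2 to 103 in GFP-BM REPOP cortex, with 1 of 9 tested markers called lower in each transplanted group. In the thalamus it was 111 to 180, 91.1 to 100 and 102 to 126 FPKM, with 0 markers called. Of 11 homeostatic microglia markers, such as Tmem119 and P2ry12, GFP-BM REPOP against WT CON called 5 lower in the cortex and 2 lower in the thalamus, and the sums in the cortex were 100 to 117 and 69.6 to 78.7 FPKM. Siglech, Slc2a5 and Crybb1 of this list were named by the study as lower in these same samples. Their direction is thus not independent evidence. Of 8 engrafted myeloid markers, such as Ms4a7 and Apoe, 8 were called higher in the cortex and 7 in the thalamus, although the study chose these on the same samples and their direction is not independent evidence. Of 3 tested border macrophage markers, 1 was called higher in the cortex and in the thalamus (Mrc1, also an engrafted marker, adjusted p = 0.00662 and 0.0438). None of the markers of the first 3 lists was at 0 throughout a group. Endothelial sums overlapped (90.9 to 93.7 FPKM in WT CON and 84.0 to 98.6 in GFP-BM REPOP cortex), with 0 of 7 called. Of 6 B cell markers 2 were in the table, Ighm and Pax5, with sums of 5.8 to 32.1 FPKM over all libraries. In the thalamus these were 10.5 to 24 FPKM in WT CON, 8.27 to 10.5 in GFP-BM CON and 9.31 to 13.2 in GFP-BM REPOP libraries. A B cell part in the Fcgr2b level was not tested.

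The members were set against the mean log2 level of the pan-myeloid markers in the same library. The log2 ratio of Fcgr3 in GFP-BM REPOP cortex was -0.51 from GFP-BM CON (exact permutation test, p = 0.0286) and -0.39 from WT CON (p = 0.0571), with no overlap in either. With the homeostatic markers added to the reference these became -0.10 and 0.02. Those markers were themselves lower in GFP-BM REPOP cortex (sums of 69.6 to 78.7 FPKM) than in WT CON (100 to 117) and GFP-BM CON cortex (88.3 to 96.3). In the thalamus they summed to 82.9 to 87.5 FPKM, against 102 to 149 and 91.8 to 94.4. The wider reference therefore raises GFP-BM REPOP ratios whatever the member does, and is no check of them. The log2 ratio of Fcgr2b in GFP-BM REPOP thalamus was 0.51 from WT CON (exact permutation test, p = 0.0286), again with no overlap, and 0.82 with the wider reference. That of Syk was -0.33 in GFP-BM CON thalamus from WT CON and -0.41 in GFP-BM REPOP cortex from GFP-BM CON (exact permutation test, p = 0.0571 each). The first was -0.01 with a pseudocount of 1 and the second -0.003 with the wider reference. Syk lay at 0.558 to 0.694 FPKM in GFP-BM CON and 0.869 to 1.19 in WT CON thalamus. A pseudocount of 1 therefore shrinks its own log2 difference, and that value is no check of the ratio. With the pan-myeloid reference the adjusted p of each difference named here was 0.257 or 0.274, and none passed, under the same limit of the exact test. Fcer1g and Fcgr1 differed by at most 0.33 in size with the pan-myeloid reference (smallest p = 0.0571, exact permutation test), and with the wider one by 0.74 (Fcer1g, cortex) and 0.63 (Fcgr1, thalamus) for GFP-BM REPOP from WT CON.

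Across the 34 libraries, with each region's mean taken out, the members' correlations with marker sums were described. Fcer1g correlated with the summed engrafted markers at Pearson r = 0.75 and with the homeostatic ones at 0.07, and Fcgr3 at 0.10 and 0.72. The engrafted sum was nearly all Apoe (a mean of 1040 FPKM in WT CON cortex, which held no graft), so it describes that gene. With treatment means taken out as well, the values were closer together (0.74 and 0.73 for Fcer1g, 0.75 and 0.64 for Fcgr3). Fcgr3 correlated with the GC measure at 0.67 and Fcgr2b at 0.27. Among the members, Fcgr1 and Fcgr2b correlated at 0.57, Fcgr2b and Syk at 0.42, Fcer1g and Fcgr3 at 0.38, and Fcgr2b and Fcgr3 at 0.09. With treatment means taken out as well these were 0.50, 0.63, 0.68 and 0.36. These values describe libraries that share animals, depth and base composition, and carry no test.

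The 5 genes most like each member by Pearson correlation over these libraries are named here, and several ranked lower by Spearman correlation. For Fcer1g they were Cyba, a subunit of the phagocyte oxidase (r = 0.83), the complement genes C1qc and C1qa (0.81 and 0.77), the apolipoprotein Apoe (0.76) and the microglial Fc receptor-like gene Fcrls (0.74). Fcgr1 was most like Gpnmb (0.68), Ang (0.65), the leukocyte actin bundler Lcp1 (0.64), C1qa (0.62) and Arhgap19 (0.61). Fcgr2b was most like Lcp1 (0.75), Bcl2l11 (0.73), Abcc3 (0.72), Wfdc18 (0.71) and Dock8 (0.70). Fcgr3 was most like ribosomal genes, Rps6, Rplp0 and Rps9 (0.84, 0.83 and 0.82), the pseudogene Rps6-ps4 (0.84) and Esd (0.84). Syk was most like the smooth muscle genes Tagln and Acta2 (0.69 each), Plekho2 (0.68), Itih2 (0.67) and Lrrk1 (0.67).

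The rest of the pathway was read from fixed lists. Of 14 other Fc receptor genes, 5 were in the table and tested (Fcgrt, Fcrls, Fcrlb, Fcer2a and Trim21) and 0 were called in any of the 9 comparisons. Fcgrt, the neonatal receptor that carries IgG across cells, had 12.8 ± 5 FPKM in WT CON, 9.57 ± 0.495 in GFP-BM CON and 8.28 ± 1.07 in GFP-BM REPOP thalamus (SD, n = 4, 3 and 4), a difference of -0.56 of the last from the first (adjusted p = 0.160). Fcrls, an Fc receptor-like gene of resident microglia, was 10.1 ± 2.62 in WT CON and 14.2 ± 2.07 FPKM in GFP-BM REPOP thalamus (SD, n = 4 each, 0.51, adjusted p = 0.135). Fcgr4, the other activating receptor of the mouse, was not analysed here. At an unadjusted p under 0.05, GFP-BM REPOP against WT CON had 2, 0 and 3 of these 5 genes in cortex, hippocampus and thalamus.

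Among 5 tested ITAM adaptors and ITAM-coupled receptors, GFP-BM REPOP against WT CON called 1 higher and 1 lower in the cortex and 1 higher in the thalamus. Clec7a (dectin-1), a receptor for fungal glucans that signals to Syk, rose in the cortex by 1.88, from 0.210 ± 0.0765 FPKM (n = 3) to 1.04 ± 0.270 (SD, n = 4, adjusted p = 0.0179). In the thalamus it rose by 1.75, from 0.380 ± 0.0692 to 1.54 ± 0.441 (SD, n = 4 each, adjusted p = 0.0186). Clec7a is also one of the engrafted markers that the study chose. Siglech, which pairs with Tyrobp and is also a homeostatic marker, fell by 1.09 on the log2 scale in the cortex, from a mean of 4.70 ± 0.248 FPKM (n = 3) to 2.17 ± 0.335 (SD, n = 4, adjusted p = 0.00193). The study named Siglech as lower in these same samples, so its call is not independent evidence. The median difference of the 5 genes was 0.05 in the cortex and 0.08 in the thalamus, beside 0.02 and -0.05 over all genes.

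Among 16 tested inhibitory receptors, phosphatases and adaptors, the same comparison called 2 higher in the cortex and 2 in the thalamus, the same 2 genes in both. Lilrb4a, a receptor with ITIMs, rose from a mean of 0.378 ± 0.166 FPKM (n = 3) to 2.73 ± 0.698 (SD, n = 4) in the cortex (2.58, adjusted p = 0.00195) and from 0.245 ± 0.223 to 3.15 ± 0.631 (SD, n = 4 each) in the thalamus (3.42, adjusted p = 0.00647). It was called in both regions in all 24 alternatives tried. The study named Lilrb4a in a monocyte signature chosen on these same samples, so its call is not independent evidence. Clec12a, an inhibitory lectin receptor, rose from a mean of 0.363 ± 0.135 FPKM (n = 3) to 1.22 ± 0.277 (SD, n = 4) in the cortex (1.52, adjusted p = 0.0465) and from 0.329 ± 0.177 to 1.45 ± 0.106 (SD, n = 4 each) in the thalamus (1.95, adjusted p = 0.0209). The call for Clec12a in the cortex was kept in 8 of 23 alternatives and that in the thalamus in 17 of 23. The calls for Clec7a were kept in 18 of 23 and 17 of 23 and that for Siglech in the cortex in 23 of 24. The median over the list was 0.07 in the cortex and 0.03 in the thalamus.

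**Figure D5:**
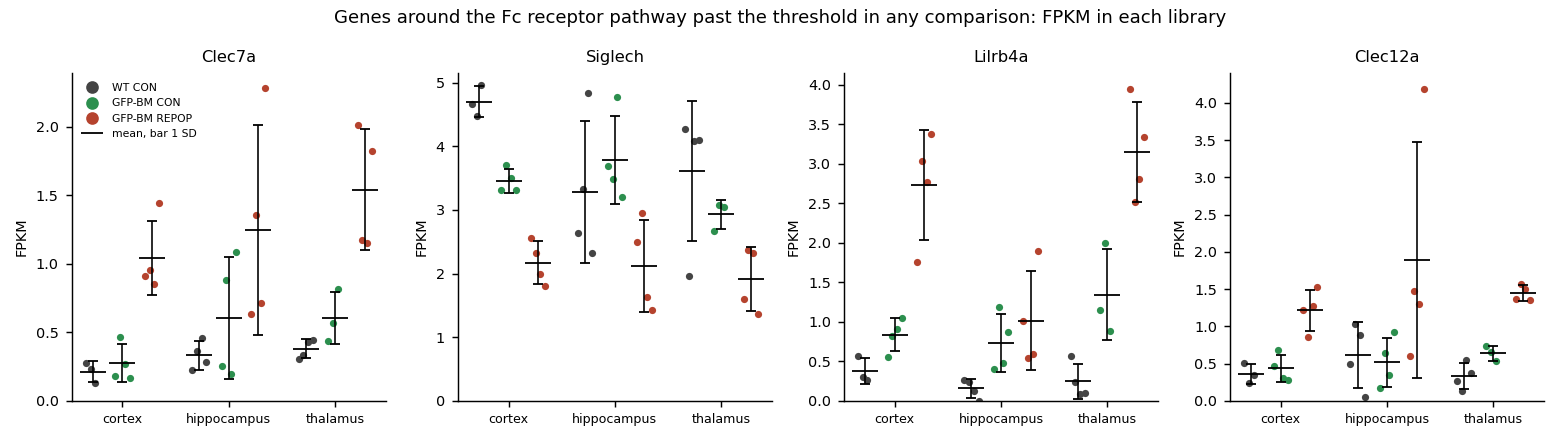
FPKM (y axes) of Clec7a, Siglech, Lilrb4a and Clec12a in each library, by region and treatment (x axis), with the mean and 1 SD as bars. Lilrb4a lies at 1.75 to 3.38 FPKM in GFP-BM REPOP cortex and at 0.260 to 0.569 in WT CON cortex, with GFP-BM CON between them at 0.554 to 1.05 and overlapping the WT CON range.

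The kinases and substrates around Syk (29 genes tested, such as Lyn, Btk, Plcg2 and Vav1) and the actin genes of the phagocytic cup (22 tested, such as Rac2, Was and Arpc1b) had 0 calls in all 9 comparisons by limma-trend. In GFP-BM REPOP against WT CON, 4, 5 and 4 of the 29 and 2, 0 and 1 of the 22 had an unadjusted p under 0.05 in cortex, hippocampus and thalamus. Their medians lay between -0.05 and 0.11 for the first list and between -0.11 and 0.03 for the second. No gene of these lists was called in the hippocampus or in the comparisons that involve GFP-BM CON mice. The hippocampus means of WT CON and GFP-BM REPOP mice were 0.157 and 1.01 FPKM for Lilrb4a, 0.332 and 1.25 for Clec7a, 0.612 and 1.89 for Clec12a, and 3.28 and 2.12 for Siglech. Lilrb4a and Clec7a were each called there in 1 of 24 alternatives.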

How the data were processed

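Bulk RNA-seq of 34 libraries from 12 mice was used as the authors deposited it, as 1 table of FPKM values per gene and library. According to the study's methods the authors aligned paired reads of 150 bases to mm10 (GRCm38) with STAR, counted them with featureCounts and scaled them with edgeR and limma. The strand setting was not given in the sources used here, so reads of a gene and an overlapping antisense gene cannot be told apart. FPKM steps gave whole reads for 100.0% of values (tolerance 0.01), 17085018 to 26010509 per library (median 21367227).

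Groups came from the labels, and all members, gene lists and tests were chosen with earlier results of these data known. Of 16389 genes, 15053 had an FPKM of 1 or more in at least 3 libraries, 343 annotated as other than protein-coding or lncRNA were left out, and 14710 were tested. Log2(FPKM + 0.1) was fitted with limma-trend (limma 3.58.1, R 4.3.3), 3 treatments per region, two-sided, with Benjamini-Hochberg adjustment over all 14710 genes and a threshold of 0.05. Contrasts between regions used 1 fit of the 9 groups and took the animal as a random effect (correlation -0.038). Ratios were compared with exact two-sided permutation tests, adjusted over 72 tests. The GC measure is the median log2 level of the 1388 tested genes of highest GC content (at least 58.2%) minus that of the 1388 of lowest (at most 41.5%). Sequences were read from GENCODE M21 transcripts and matched in Python 3.11.15. Genes were named where they were members, where a fixed pathway list had a call, or where they were the 5 most like a member by Pearson correlation over the 34 libraries, each region's mean taken out. Tyrobp, Fcgr4 and Fcgrt were named whatever their values, and the treatment values of Fcrls were chosen after they had been seen.

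Alternatives were other pseudocounts, low-value filters, quantile or median-ratio scaling, other samples in the fit, limma without trend, array quality weights, voom on the recovered reads, a GC and length correction, a replicate block and each library left out. Scripts were tested on simulated data. The changes simulated for the limma fit were larger than those of the members. The simulated spread between animals was smaller than the median residual SD in hippocampus and thalamus (0.292 and 0.225 on the log2 scale). The simulation thus does not show that changes of the members' size would be found. Nothing says that libraries of a group came from separate litters or cages, and p-values measure only the spread between these animals.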

Additional observations from a re-analysis of the deposited data

Results flagged for a closer look

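In GFP-BM REPOP cortex 1 of the 4 libraries lay apart from the others for Fcgr1. Replicate 1 had 1.56 FPKM, and the highest of the other 3 libraries had 1.20. This library also had 18.8 FPKM of summed border macrophage markers, whose part was not tested. Of 35 groups of 4 libraries examined in this way for the 5 members, this was the only one, and chance alone gives such a gap in about 1 in 20 groups.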

How the results depend on the processing

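The members past the threshold stayed at 0 of 5 in the 9 treatment comparisons except in the thalamus. GFP-BM REPOP against WT CON had 1 with array quality weights (Fcgr2b), and 0 to 1 when single libraries were left out, as had GFP-BM CON against WT CON (Fcgr3, without WT CON replicate 1). Between regions, leaving out single libraries gave 0 to 1 members in WT CON hippocampus and thalamus and in GFP-BM CON hippocampus, each against cortex, and 0 to 2 in GFP-BM REPOP hippocampus. In the same order, 3580 to 6548, 2020 to 5913, 1563 to 4017 and 1146 to 4102 of all genes were called. Voom gave 0 members in GFP-BM CON hippocampus against cortex. Quantile normalization gave 3 in GFP-BM REPOP hippocampus against cortex (Fcer1g, Fcgr3 and Syk), and for thalamus against hippocampus 1 in GFP-BM CON (Syk) and 2 in GFP-BM REPOP (Syk and Fcgr3). That setting called 27.6%, 19% and 37.4% of all genes in these contrasts. In the hippocampus the Fcgr2b to Fcgr3 log2 ratio difference ran from -0.0757 to 0.433 for GFP-BM REPOP and from -0.445 to 0.0117 for GFP-BM CON, each from WT CON, when single libraries were left out, and the first was -0.0051 after the GC and length correction, which was added after seeing the data. The cause of these shifts was not tested. Of 45 member differences between treatments, 28 kept their direction in every alternative, and 59 of 1089 values had the other direction. Over all genes, the calls of GFP-BM REPOP against WT CON were 108, 2 and 123 in cortex, hippocampus and thalamus and ran over 27 to 242, 0 to 411 and 11 to 1954. GFP-BM CON against WT CON had 47, 0 and 0, over 0 to 230, 0 to 2849 and 0 to 1347. GFP-BM REPOP against GFP-BM CON had 7, 4 and 0, over 1 to 30, 0 to 1022 and 0 to 7.

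With the replicate block, 0 members were called in each treatment comparison, and the calls over all genes were 36, 0 and 11 for GFP-BM REPOP against WT CON. Same-numbered libraries did not deviate together in a common direction (correlations of -0.433 to 0.490). With single pairs from groups of 3 or 4 libraries, these values cannot decide whether the number pairs libraries. The ratios were not tested with a replicate block. Counting error of 7.5% to 12% of a member's value, and 3 or 4 libraries a group, limit what could be detected.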

Other observations

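Ighm and Igkc, 2 of 3 immunoglobulin genes in the table, were outside the tested classes of genes, so that their values are given without a test. Ighm, the mu heavy chain, had means of 27.2 FPKM in WT CON cortex, 24.7 in GFP-BM CON cortex and 23.2 in GFP-BM REPOP cortex. In the same order it had 14.1, 15.6 and 18.8 in the hippocampus and 15.2, 9.01 and 11 in the thalamus. Igkc, the kappa light chain, was far more uneven, with 0.151 to 45.4 FPKM over single libraries.

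A ratio chosen after the members' values were seen set Fcer1g against Fcgr3, the receptor it serves. Its log2 difference of GFP-BM REPOP from WT CON was 0.72 in the cortex (exact permutation test, p = 0.0571), 0.34 in the hippocampus (exact permutation test, p = 0.0286) and 0.62 in the thalamus (exact permutation test, p = 0.0286). These p-values were not adjusted.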
